A study of Rattus norvegicus with 24 samples.

Results

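The 10 genes followed here mark cytotoxic T cells and natural killer (NK) cells and were measured in the lungs of rats that breathed cigarette smoke, Iraqi sand, silica or combinations of these. The members were Gzma, Gzmb, Gzmk, Prf1, Nkg7, Klrd1, Cd8a, Cd8b, Il2rb and Tbx21. They were found by symbol in the array annotation, and each was represented by its brightest probe set with a single symbol over the 24 arrays. Of these 10 genes, 9 were measured, among 14217 genes tested in all, and Tbx21 had no probe set annotated with its symbol and is not analysed here.

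The samples were right caudal lung lobes of male Sprague-Dawley rats aged 17 weeks, 1 Affymetrix rat array per rat. There were 6 groups of 4 rats: smoke without particles, smoke with Iraqi sand, smoke with silica, Iraqi sand without smoke, silica without smoke, and air controls. Smoke was given through the nose only at 0.48 mg/L, 3 hours daily on 5 days of each week, and the rats without smoke were held the same way in air. The smoke course is 5 weeks in the labels, whereas the design text has 6. Particles were given to the whole body at 1 mg/m3, 18 hours daily on 7 days of each week for 2 weeks, and the rats without particles breathed air in their place. The design text names 17 rats per group and an age of 10 to 15 weeks, and 4 rats per group are analysed here. The title of the study asks whether smoke and Iraqi sand act together.

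Cytotoxic lymphocytes kill target cells by releasing granules that hold perforin, which opens the target's membrane, and granzymes, proteases that enter through it and set off cell death. CD8 T cells recognise their target through the T cell receptor with CD8 as coreceptor, and NK cells through inhibitory and activating surface receptors. Both cell types reside in the lung, where they act against virus-infected and transformed cells. In the rat, NK cells and some macrophages also carry the CD8 alpha chain, so Cd8a alone does not name a CD8 T cell.

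The promoters of Nkg7, Prf1, Gzmb and Gzmk are shown because, among members with a promoter in the table, the levels of these genes followed each other closely from rat to rat. Each sequence holds 250 bases before and 50 after the start of the gene, from RefSeq on assembly GRCr8. Capitals mark matches, on either strand, to motifs of 4 families of transcription factors active in cytotoxic lymphocytes: the T-box site GTGTGA, the RUNX site TGTGGT, the ETS site AGGAAG and the STAT site TTCNNNGAA.
Nkg7 (chr1:102981247-102981546, plus strand): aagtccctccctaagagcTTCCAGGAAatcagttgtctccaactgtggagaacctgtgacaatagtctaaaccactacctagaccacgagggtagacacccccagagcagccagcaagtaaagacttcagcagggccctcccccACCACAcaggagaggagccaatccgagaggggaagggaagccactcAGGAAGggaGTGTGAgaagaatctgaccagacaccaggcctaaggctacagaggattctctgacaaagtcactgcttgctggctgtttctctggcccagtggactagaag
Prf1 (chr20:29788790-29789089, plus strand): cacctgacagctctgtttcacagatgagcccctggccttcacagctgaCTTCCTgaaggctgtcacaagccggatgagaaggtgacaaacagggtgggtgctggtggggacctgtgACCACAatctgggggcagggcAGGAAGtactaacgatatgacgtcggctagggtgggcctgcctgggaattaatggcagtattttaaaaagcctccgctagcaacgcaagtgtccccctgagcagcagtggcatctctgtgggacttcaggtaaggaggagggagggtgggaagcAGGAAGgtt
Gzmb (chr15:34462420-34462719, minus strand): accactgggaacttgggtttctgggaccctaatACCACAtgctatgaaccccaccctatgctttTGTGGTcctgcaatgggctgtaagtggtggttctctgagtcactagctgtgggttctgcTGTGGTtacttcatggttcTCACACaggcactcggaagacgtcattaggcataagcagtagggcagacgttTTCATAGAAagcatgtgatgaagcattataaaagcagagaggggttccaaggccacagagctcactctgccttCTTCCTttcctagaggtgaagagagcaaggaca
Gzmk (chr2:46581966-46582265, minus strand): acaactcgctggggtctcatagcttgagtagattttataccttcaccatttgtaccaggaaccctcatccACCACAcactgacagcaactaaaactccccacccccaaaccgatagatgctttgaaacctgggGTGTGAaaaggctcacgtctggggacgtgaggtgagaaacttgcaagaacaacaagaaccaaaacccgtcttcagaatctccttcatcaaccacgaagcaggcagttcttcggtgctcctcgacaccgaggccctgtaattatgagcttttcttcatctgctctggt

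The GTGTGA letters, those that T-bet and eomesodermin recognise, were found in the Nkg7, Gzmb and Gzmk windows and not in the Prf1 window. The RUNX letters were in all 4 windows, with 3 copies in Gzmb. The ETS letters were in the Nkg7, Gzmb and Prf1 windows, with 3 copies in Prf1, and the STAT letters in Nkg7 and Gzmb. No match overlapped another in these windows. Over 7 members with a promoter in the table, 3 held the T-box letters, 5 the RUNX letters, 3 the ETS letters and 2 the STAT letters. Among 27457 rat promoters of the same length, 13.5% held the T-box letters, 16.9% the RUNX letters, 34.3% the ETS letters and 8.69% the STAT letters. The Cd8a and Tbx21 windows held no match to the 4 motifs, and the Gzma window held 1 RUNX match. A match is a description of letters and was not tested for binding.

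Rats 302, 104 and 604 stood apart on other genes, and rat 302 also in its profile as a whole. When arrays were correlated in pairs, the values for rat 302 averaged 0.944, and its closest match reached only 0.96. The average was 0.98 for rat 604 and 0.982 for rat 104, and at least 0.985 for each remaining rat. Myl7, a gene of heart atrium, reached 11.51 in rat 302 and 12.04 in rat 104, against at most 9.33 in any other, and rat 604 had the highest Mki67, a marker of dividing cells, at 8.90, against at most 7.25. Sftpc, the surfactant gene of alveolar type 2 cells, lay between 14.79 and 14.95 in all 24 rats. Heart muscle genes had a median difference of -0.58 with smoke averaged over particles, and 0 of 7 passed by limma. Of 7 genes of lung epithelium and endothelium, 2 fell, with a median of -0.06. Most medians and calls of the members that rest on these rats are given with and without them. Values of single members are given that way only in part. The counts and medians of the other lists, and the genes most like each member, are given over all 24 rats only.

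Averaged over the 3 particle conditions, all 9 measured members were lower in the 12 smoke rats than in the 12 rats without smoke. The differences ran from -0.54 for Cd8a to -0.31 for Cd8b on the log2 scale, with a median of -0.42, against a median of -0.02 over all genes tested. The median of the members ran between -0.53 and -0.30 when 1 rat was left out, with -0.30 without rat 604, and it was -0.25 without rats 302, 104 and 604. Without those 3 rats Prf1 was at -0.18 in place of -0.39, and Il2rb at -0.19 in place of -0.43. Only Cd8b, the beta chain of the CD8 coreceptor of T cells, fell past the threshold of an adjusted p under 0.05 (limma over all genes, two-sided, Benjamini-Hochberg adjustment). In the same comparison 6.39% of all genes passed in either direction and 3.7% passed as lower. At an unadjusted p under 0.05, 5 of 9 members were lower, against 15.5% of all genes, and differences below 0 were found for 58% of all genes. The members share rats and followed each other from rat to rat, so such counts, here and below, are not counts of independent observations. In a piece of whole lung, fewer cells of a type and less RNA per cell cannot be told apart. Precision is limited by the 4 arrays per group.

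Cd8b levels, in log2 units as all levels here, were 6.36, 6.32, 6.47 and 6.62 in rats given smoke without particles, against 7.12, 6.87, 7.02 and 6.64 in air controls. With Iraqi sand they were 6.35, 6.33, 6.56 and 6.51 in smoke rats, against 6.73, 7.18, 6.60 and 6.29 in rats without smoke. With silica they were 6.65, 6.34, 6.03 and 6.61 in smoke rats, against 6.59, 6.57, 6.80 and 6.48 in rats without smoke. The smoke and air groups did not overlap without particles, and they overlapped with either particle. Cd8b was the dimmest of the measured members, at a mean of 6.58 (percentile 23.8 of all genes), and had 1 single-symbol probe set. The part of that low level in its small SE was not tested. The averaged Cd8b difference was -0.31 ± 0.09 (SE, 12 rats per arm, adjusted p = 0.0385 by limma). That call held in 9 of 24 fits that each left out 1 rat, with adjusted p between 0.0115 and 0.0708. It ended on leaving out any 1 of rats 102, 103, 104, 301, 501, 502, 503, 201, 203, 204, 402, 404, 406, 603 or 604, while the difference stayed between -0.36 and -0.26. It also ended in a fit of 19 arrays that took RNA integrity as a covariate (-0.32, adjusted p = 0.177) and without rats 302, 104 and 604 (-0.21, adjusted p = 0.0761). The count of members past the threshold was 5 with array weights, 4 without rat 605, 3 without rat 205, and 2 without rat 305 or rat 602, in place of 1. The share of all genes past it moved as well, and was 18.6% with array weights and 8.43% without rat 605. It was 7.61% on leaving out rat 205, 8.86% on leaving out rat 305 and 5.18% on leaving out rat 602.

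Cd8a, the alpha chain of the same coreceptor, averaged 7.63 in the smoke rats and 8.17 in the rats without smoke. Its difference of -0.54 ± 0.17 (SE, 12 rats per arm) had an adjusted p of 0.0623 by limma and did not pass. Without particles its levels were 7.52, 7.18, 7.52 and 7.96 in smoke rats, against 8.37, 8.34, 8.54 and 8.20 in air controls. Those groups did not overlap. With Iraqi sand they were 7.98, 7.45, 7.82 and 7.62 in smoke rats, against 8.16, 8.82, 8.18 and 7.57 in rats without smoke. With silica they were 8.35, 7.01, 6.79 and 8.40 in smoke rats, against 7.73, 7.86, 8.20 and 8.07 in rats without smoke, so that the smoke rats lay on both sides of the others. In the RefSeq gene order of GRCr8, Cd8a and Cd8b are neighbours on chromosome 4 with 0 protein-coding genes between them.

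**Figure D1:**
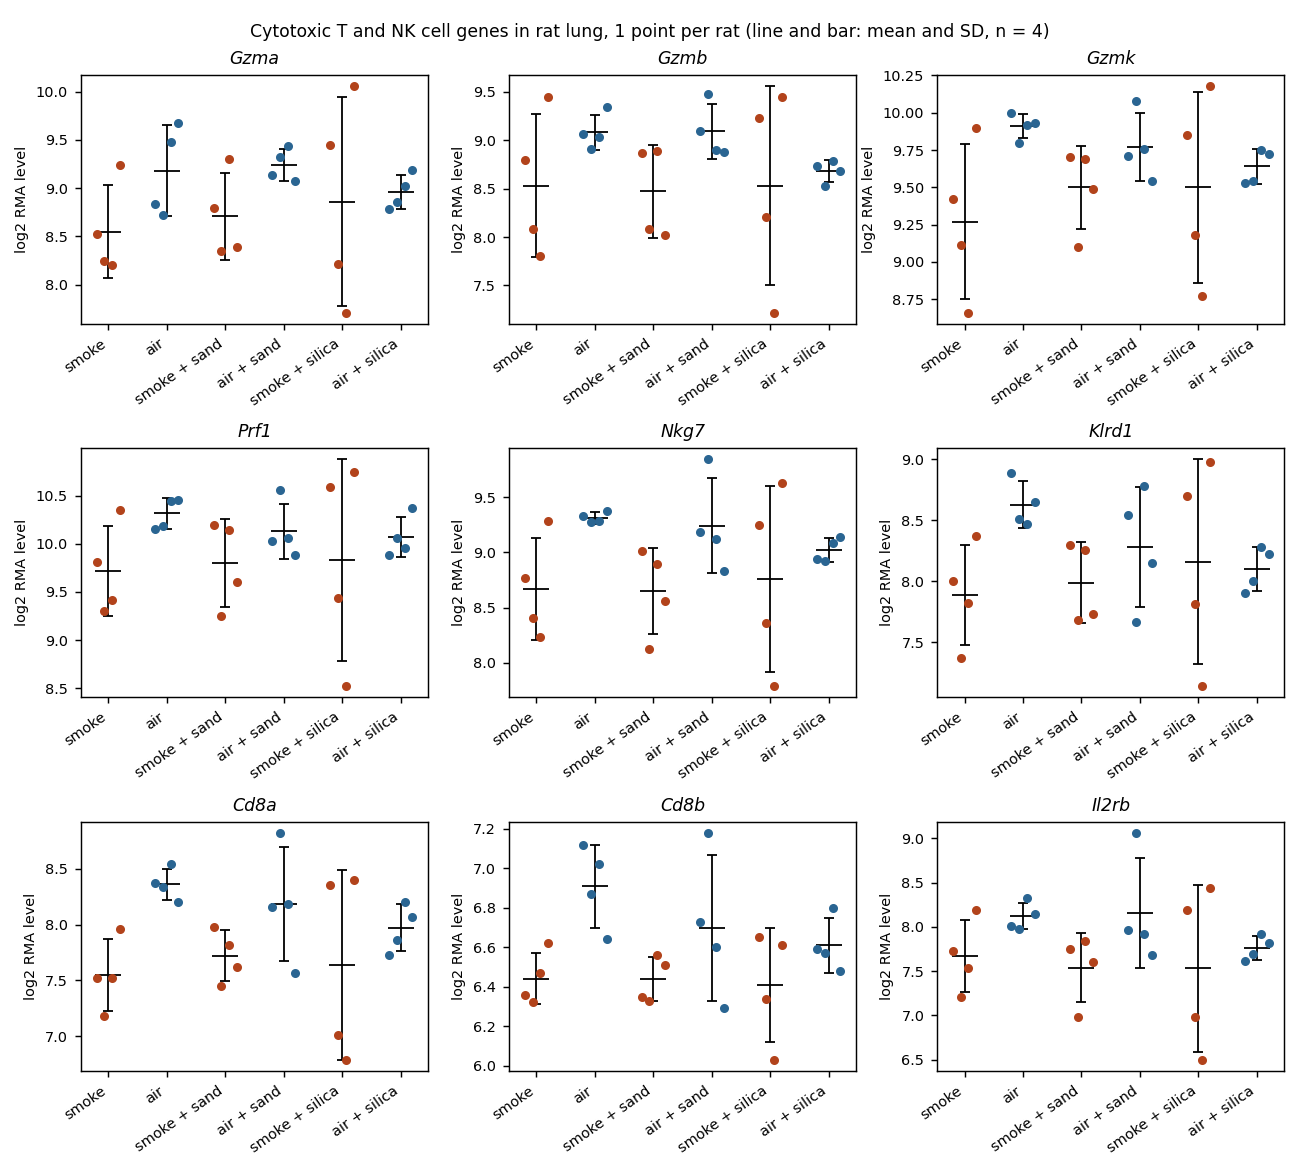
Levels of the 9 measured cytotoxic T and NK cell genes, 1 point per rat, in the 6 exposure groups (log2 RMA level; smoke groups in orange, each left of the air group with the same particle in blue). Horizontal lines and bars are the group mean and SD (n = 4). Gzmb in the rats given smoke with silica runs between 7.22 and 9.45, against 8.53 and 8.78 in the rats given silica without smoke, and the other members but Cd8b show a like spread in that smoke group.

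Prf1 encodes perforin, the pore former of the granule. Its levels without particles were 9.81, 9.30, 9.42 and 10.35 in smoke rats, against 10.16, 10.19, 10.45 and 10.46 in air controls. With Iraqi sand they were 10.20, 9.25, 10.15 and 9.60 in smoke rats, against 10.03, 10.56, 10.06 and 9.88 in rats without smoke. With silica they were 10.59, 9.44, 8.52 and 10.75 in smoke rats, against 9.89, 10.06, 9.96 and 10.37 in rats without smoke. Smoke and air groups overlapped in each case, and with silica the highest and the lowest Prf1 level of all 24 rats both came from the smoke group. The averaged difference was -0.39 ± 0.20 (SE, 12 rats per arm, adjusted p = 0.240 by limma).

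Gzmb encodes granzyme B, the granule protease that activates caspases in the target. Its levels without particles were 8.79, 8.08, 7.80 and 9.44 in smoke rats, against 9.06, 8.91, 9.03 and 9.34 in air controls. With Iraqi sand they were 8.87, 8.08, 8.89 and 8.02 in smoke rats, against 9.09, 9.48, 8.90 and 8.88 in rats without smoke. With silica they were 9.23, 8.21, 7.22 and 9.45 in smoke rats, against 8.73, 8.53, 8.78 and 8.68 in rats without smoke. Rats 204 and 604 were low and rats 205 and 605 high, above every air control. The averaged Gzmb difference was -0.44 ± 0.22 (SE, 12 rats per arm, adjusted p = 0.210 by limma). Granzyme B belongs to a family with closely related copies in the rat genome, and signal from such copies on this probe set was not tested.

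Gzma and Gzmk encode further proteases of the granule. Gzma encodes granzyme A, a tryptase, and ran between 7.71 and 10.06 over the smoke rats, against 8.72 to 9.67 over the rats without smoke. Gzmk encodes granzyme K, also a tryptase, and ran between 8.66 and 10.18 over the smoke rats, against 9.53 to 10.08 over the rats without smoke. Both ranges of the smoke rats took in the whole range of the others. The averaged differences were -0.42 ± 0.21 for Gzma (adjusted p = 0.225) and -0.35 ± 0.14 for Gzmk (adjusted p = 0.129), both by limma with SE over 12 rats per arm. Gzma and Gzmk are neighbours on chromosome 2 in the RefSeq order, with 0 protein-coding genes between them.

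Nkg7 encodes a membrane protein of cytotoxic granules that takes part in their release. Its levels without particles were 8.77, 8.41, 8.23 and 9.28 in smoke rats, against 9.33, 9.27, 9.28 and 9.37 in air controls. With Iraqi sand they were 9.01, 8.13, 8.89 and 8.56 in smoke rats, against 9.18, 9.84, 9.12 and 8.83 in rats without smoke. With silica they were 9.25, 8.36, 7.79 and 9.63 in smoke rats, against 8.94, 8.92, 9.08 and 9.14 in rats without smoke. The air controls lay within 0.1 of each other, and 3 of 4 rats given smoke without particles were below all of them. The averaged Nkg7 difference was -0.50 ± 0.17 (SE, 12 rats per arm, adjusted p = 0.0843 by limma).

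Klrd1 and Il2rb are receptor genes. Klrd1 encodes CD94, which pairs with NKG2 proteins on NK cells and some CD8 T cells, and its averaged difference was -0.33 ± 0.18 (SE, adjusted p = 0.263 by limma). Its levels without particles were 8.0, 7.37, 7.82 and 8.37 in smoke rats, against 8.89, 8.51, 8.47 and 8.65 in air controls, with no overlap. With Iraqi sand they were 8.30, 7.68, 8.26 and 7.73 in smoke rats, against 8.54, 7.67, 8.78 and 8.15 in rats without smoke. The lowest of these sand levels without smoke was that of rat 302, which was the highest of its group for 7 other members. With silica Klrd1 was at 8.70, 7.81, 7.14 and 8.98 in smoke rats, against 7.90, 8.0, 8.28 and 8.22 in rats without smoke. Il2rb encodes the receptor chain shared by interleukin 2 and interleukin 15, on which NK cells and memory CD8 T cells depend. Il2rb ran between 6.50 and 8.44 over the smoke rats, against 7.61 to 9.06 over the rats without smoke, and its averaged difference was -0.43 ± 0.20 (SE, adjusted p = 0.181 by limma).

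**Figure D2:**
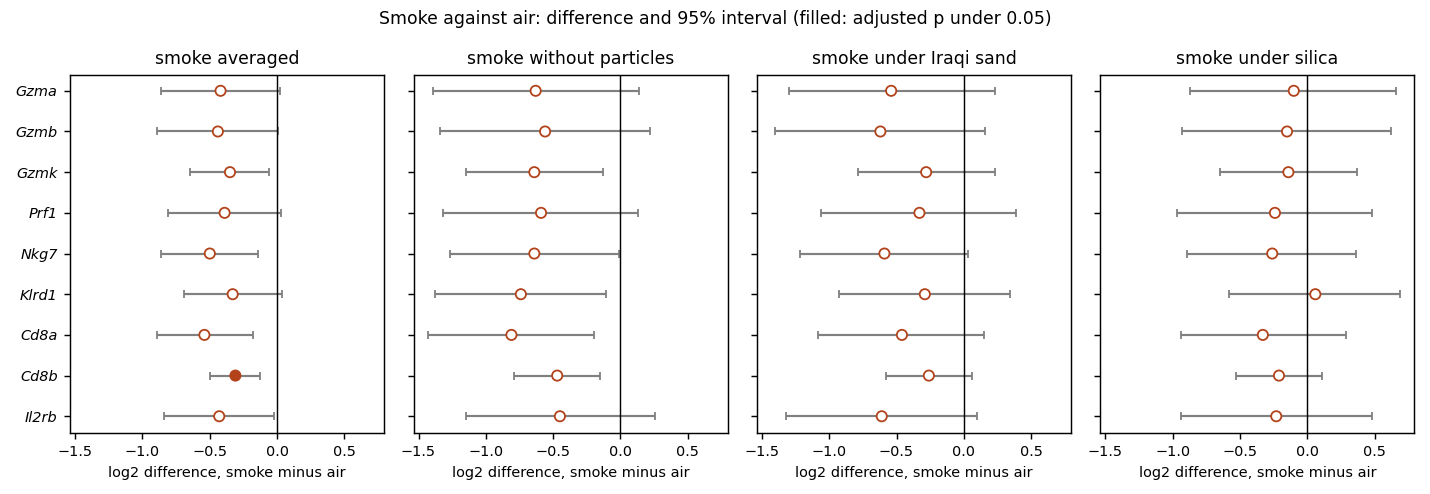
Differences between smoke and air for the 9 members, averaged over particle conditions and within each (x axis: log2 smoke minus air; points with 95% intervals from the limma fit, filled where the adjusted p is under 0.05). Only Cd8b averaged over particles is filled, at -0.31; within silica 8 of 9 points are below 0, and the point of Klrd1 is at 0.06.

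Without particles, all 9 members were lower in smoke rats than in air controls, with differences between -0.81 for Cd8a and -0.45 for Il2rb and a median of -0.63, against -0.01 over all genes, of which 53.3% were below 0. No member passed the threshold, and 127 of 14217 genes did (0.893%). The lowest adjusted p among members was 0.208, for Cd8b. The limma fit without adjustment gave 5 members a p under 0.05 as lower, as it did 4.4% of all genes. Klrd1, Cd8a and Cd8b were below every air control in all 4 smoke rats, a pattern found for 5.08% of all genes. Fitted on the 8 rats of these groups alone, Cd8a passed (-0.81, adjusted p = 0.0455). The count of all genes past the threshold ran between 42 and 1119 over the settings tried.

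Under Iraqi sand, all 9 members were again lower with smoke, with differences of -0.62 for Gzmb to -0.26 for Cd8b and a median of -0.46 against -0.05 over all genes, of which 59.7% were below 0. No member passed, against 1.29% of all genes. The limma fit gave no member an unadjusted p under 0.05, against 20.5% of all genes, and no member's groups were apart, against 6.95% apart as lower. The 95% intervals ran from as low as -1.40 to as high as 0.39. The median stayed between -0.59 and -0.31 when any 1 of the 24 rats was left out.

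Under silica the median difference of the members was -0.21, against -0.01 over all genes, and no member passed, while 0.00703% of all genes did, a single gene. Differences lay between -0.33 for Cd8a and 0.06 for Klrd1, with 8 of 9 below 0, as were 53.3% of all genes, and the 95% intervals reached from -0.97 to 0.69. The limma fit gave no member an unadjusted p under 0.05, against 8.17% of all genes. Smoke and air groups overlapped for all 9, while 4.35% of all genes were apart as lower. Without rat 604, which had the lowest level of its group for all 9 members, the median turned to 0.11. Leaving out that rat made Gzma 0.28, Gzmb 0.28, Gzmk 0.10, Prf1 0.19, Nkg7 0.06 and Il2rb 0.11, all higher with smoke. Gzma also turned, to 0.11, without rat 603.

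No member passed the threshold with particles without smoke. For Iraqi sand without smoke the median was -0.14, with 6 of 9 below 0, against 40.1% of all genes, whose median was 0.04 and of which 0.0281% were called. That median was -0.26 without rat 302 and turned to 0.02 without rat 305. No member was apart there, against 0.928% apart as lower. For silica without smoke all 9 members were lower than in air controls, with a median of -0.30 and a range of -0.53 for Klrd1 to -0.22, against -0.01 over all genes, 53.5% of them below 0 and 0.141% called. Gzmb, Gzmk, Nkg7, Klrd1 and Il2rb did not overlap between these 4 silica rats and the 4 air controls, which was found as lower for 2.95% of all genes. The lowest unadjusted p of these 5 was that of Klrd1, 0.0971 by the limma fit over all genes, and all 9 adjusted p were 0.999. That fit takes 1 spread per gene from all 6 groups, the smoke groups included. For Nkg7 the SE was 0.30, while its SD was 0.11 in these silica rats and 0.05 in the air controls. For Gzmk the SE was 0.25, with SDs of 0.12 and 0.08. No member passed in the 8 other settings, a fit on these groups alone among them. Averaged over smoke and air, 7 of 9 members were below 0 for Iraqi sand (median -0.04, 44.5% of all genes below 0, 0% called) and 8 of 9 for silica (median -0.13, 53.7% of all genes below 0, 0.345% called). The averaged median for Iraqi sand turned to 0.05, 0.02 and 0.04 without rats 205, 305 and 404, each left out alone, and that for silica to 0.04 without rat 604. The limma fit gave an unadjusted p under 0.05 to 0 members in these 4 comparisons, against 10.2% of all genes for Iraqi sand and 5% for silica without smoke, and 5.22% for Iraqi sand and 11.7% for silica averaged.

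Rats given both exposures were compared with the air controls, which these comparisons share with the others above. With smoke and Iraqi sand all 9 members were lower, with a median of -0.57 and a range of -0.66 for Nkg7 to -0.42 for Gzmk, and 0 passed by limma, against 0.978% of all genes, 53.6% of which were below 0. Gzmb, Gzmk, Nkg7, Klrd1, Cd8a, Cd8b and Il2rb did not overlap with the air controls, as was found as lower for 7.17% of all genes, and 4 members had an unadjusted p under 0.05 as lower, against 6.51% of all genes. Fitted on these 8 rats alone, Cd8a passed (-0.64, adjusted p = 0.0371), and without rat 302 in the fit Cd8b passed (-0.47, adjusted p = 0.0429). The count of all genes past the threshold, 139 in the full fit, moved as well. It ran between 53 and 564 when 1 rat was left out and between 13 and 1172 over the other settings. With smoke and silica all 9 were lower, against 54.5% of all genes, with a median of -0.50, and 0 members passed by limma, against 3.77% of all genes. That median was -0.80 without rat 605 and -0.18 without rat 604. At an unadjusted p under 0.05, Cd8a and Cd8b were lower, against 10.3% of all genes. Cd8b came nearest at -0.50 ± 0.15 (SE, adjusted p = 0.0696), and it passed without rat 105, 302 or 305, at adjusted p of 0.0499, 0.0149 and 0.0449. The count of all genes past the threshold, 536 in the full fit, ran between 200 and 1777 when 1 rat was left out. No member's groups were apart in that comparison, against 10% of all genes apart as lower.

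The question of joint action is that of the interaction, the smoke difference under a particle minus the smoke difference without particles. For Iraqi sand the member interactions had a median of 0.21, a range of -0.17 to 0.45, 2 of 9 below 0 against 58.1% of all genes, and adjusted p of 0.734 or more by limma, with 0 members called against 0.00703% of all genes. For silica they had a median of 0.40, a range of 0.21 to 0.80, none below 0 against 51.3% of all genes, and adjusted p of 1.00, with 0 of 14217 genes called. At an unadjusted p under 0.05 the limma fit gave 0 members in either, against 8.84% of all genes for Iraqi sand and 2.24% for silica. The 95% intervals of single members reached from -1.17 to 1.35 for Iraqi sand and from -0.79 to 1.70 for silica, and each member's interval held 0. The median interaction for silica was 0.77 without rat 604, 0.12 without rat 605 and 0.13 with RNA integrity in the fit, and that for Iraqi sand was 0.32 without rat 205 and 0.07 without rat 305.

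Smoke rats of the same group lay far from each other on most of these genes. The standard deviation within groups, pooled over the 3 smoke groups, was larger than over the 3 air groups for 8 of 9 members, against 27.5% of all genes. For Gzmb it was 0.78 in smoke groups and 0.20 in air groups, a ratio of 3.88. For Gzmk it was 0.50 in smoke groups and 0.15 in air groups, and for Prf1 0.72 in smoke groups and 0.23 in air groups. The exception was Cd8b, at 0.19 in smoke groups and 0.26 in air groups. The median ratio of the members was 2.34, against 0.733 over all genes. Without rat 302 the median of the members was 4.19 against 1.06, with 55.1% of all genes above 1, and without rats 302, 104 and 604 it was 3.13 against 1.08, with 56.6% above 1. Without rat 604 alone it was 1.94 against 0.693, with 24.3% above 1. Without rat 302 the ratio of Cd8b was 1.03. The ratio was given no test, and the members share rats, so the 8 genes are not 8 independent observations.

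**Figure D3:**
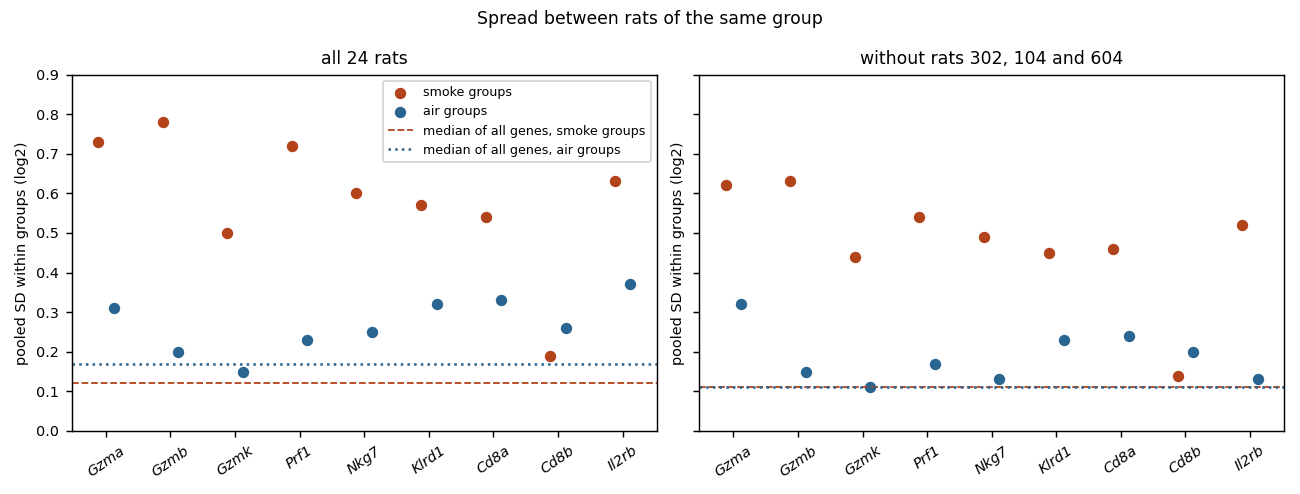
Pooled standard deviation between rats of the same group (log2 units) for the 9 members in the smoke groups (orange, left) and the air groups (blue, right), over all 24 rats and without rats 302, 104 and 604. Dashed and dotted lines give the median over all genes in the smoke groups and the air groups. The smoke points stand above the air points for all members but Cd8b in both panels.

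The same rats were high or low for nearly every member. Among rats given smoke without particles, rat 205 was the highest of its group for all 9 members, and its mean over the members was 8.82, against 8.73 to 8.94 for the 4 air controls. Rats 201, 203 and 204 had means of 8.32, 7.92 and 7.96, and each lay below all 4 air controls for all 9 members. Among rats given particles without smoke, rats 305, 501 and 502 lay below all 4 air controls for 8 members. Rats 304 and 504 did so for 7, rat 503 for 6, rat 301 for 5 and rat 302 for 1. The share of all genes below the air controls in each rat was not counted. With smoke and Iraqi sand, rats 402 and 405 had means of 8.55 and 8.60, and rats 404 and 406 had means of 7.93 and 8.17. With smoke and silica, rats 602 and 605 had means of 8.92 and 9.17, within or above the range of the air controls, and rats 603 and 604 had means of 7.95 and 7.39. The means of the other 8 rats without smoke ran between 8.41 and 9.11. Thus 3 of 12 smoke rats reached the level of the air controls. The 4 rats given silica without smoke, at 8.41 to 8.64, did not reach it either, nor did rat 305 of the sand group, at 8.43. Smoke rats 402 and 405 lay within that silica range. RNA integrity numbers were 8.60 for rat 205 and 9.30 for rat 605, and 9.40, 9.20 and 8.70 for the low rats 203, 603 and 604.

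**Figure D4:**
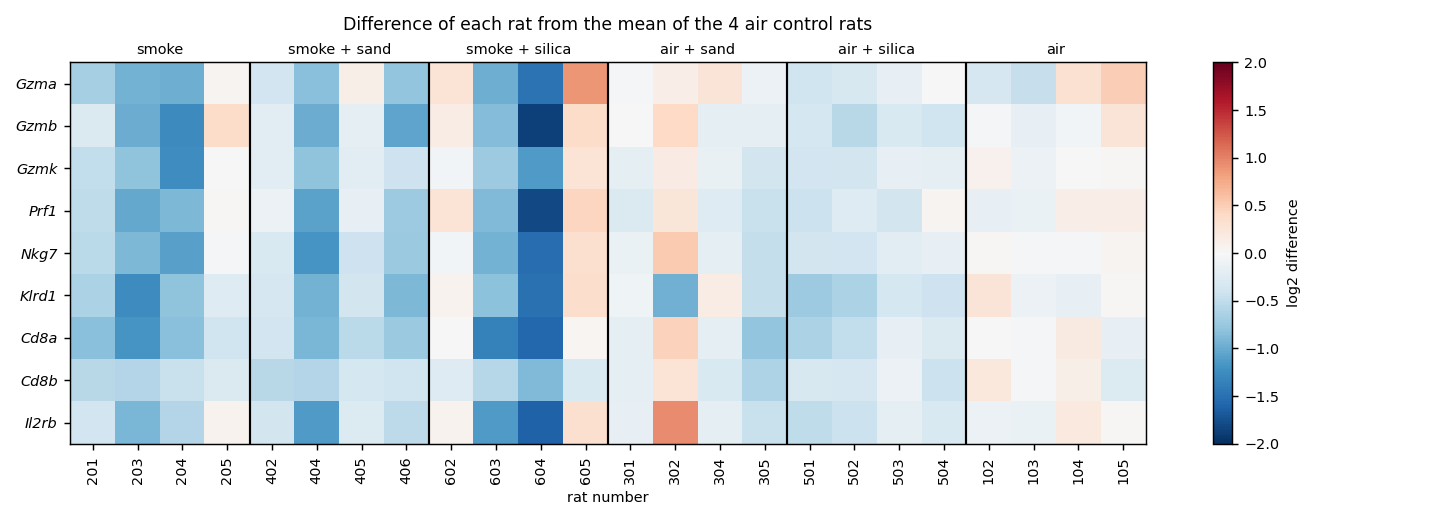
Difference of each rat from the mean of the 4 air controls for the 9 members (rows), 1 column per rat, smoke groups left and air controls at the right (colour: log2 difference, blue lower, red higher). Columns 205, 602 and 605 are pale or red in nearly all rows while columns 203, 204, 404, 603 and 604 are blue, with rat 604 the darkest; rat 302 is red except for Klrd1.

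Over the 36 pairs of members, Pearson's r across all 24 rats ran between 0.52 and 0.95 with a median of 0.86, and Spearman's rho had a median of 0.85. With the group means removed, r had a median of 0.82. Within the 12 smoke rats it lay between 0.76 and 0.98 with a median of 0.94, and without rat 604 it still lay between 0.60 and 0.98. Within the 12 rats without smoke it lay between -0.59 and 0.94 with a median of 0.64, and without rat 302 between -0.27 and 0.90 with a median of 0.48. The points share arrays and normalization, and these values are given as descriptions. Klrd1 and Il2rb gave the lowest value in the rats without smoke, -0.59, and 0.42 without rat 302. Without that rat all 8 Klrd1 values were above 0, at 0.21 to 0.90. For Gzma and Cd8b, the granzyme and the T cell coreceptor chain, r was 0.54 over all 24 rats. Nkg7 and Gzmk stood at 0.95, as did Nkg7 and Prf1, and Nkg7 and Gzmb at 0.94, which are the 4 genes whose promoters are printed above.

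**Figure D5:**
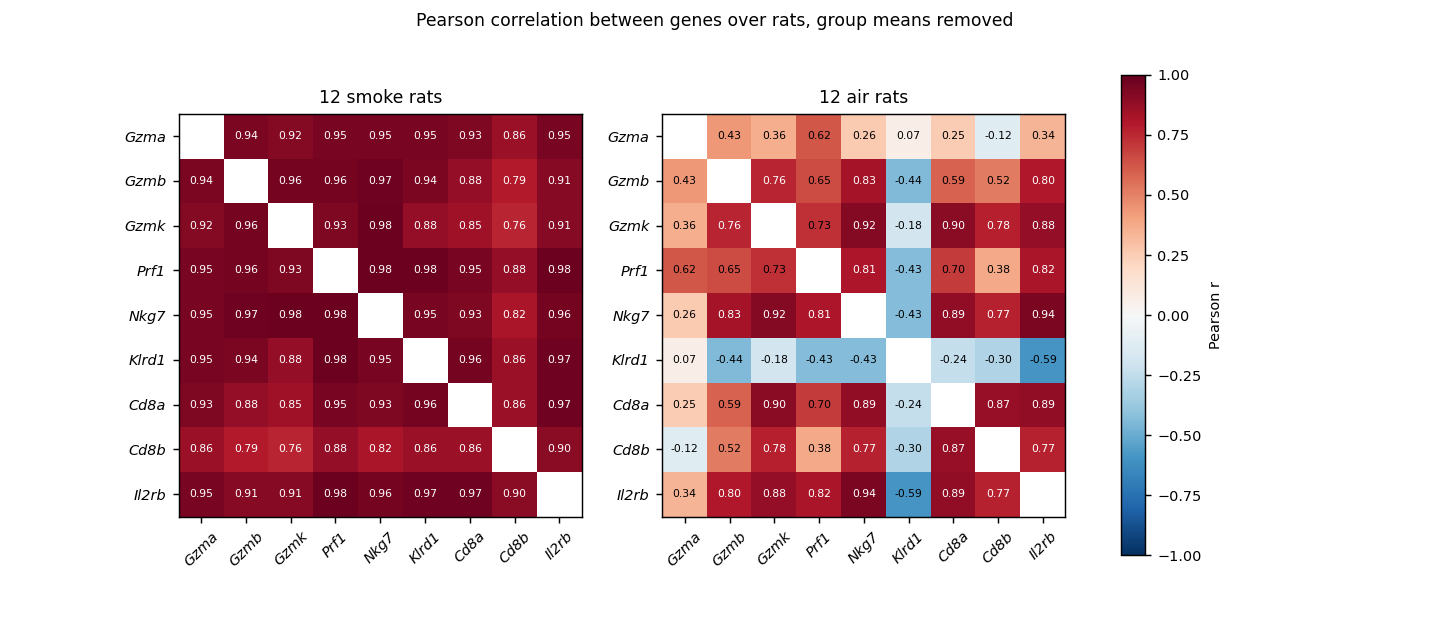
Pearson correlation between members over the 12 smoke rats (left) and the 12 rats without smoke (right), with group means removed. Every smoke value is 0.76 or higher, while in the rats without smoke 7 of 8 Klrd1 values are below 0, down to -0.59 with Il2rb; without rat 302 all 8 are above 0, at 0.21 to 0.90.

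The genes most like each member over the 24 rats, among all 14217 tested, were as follows. For Gzma it was Klrb1a, an NK receptor of the rat (r = 0.94), and Klrb1a also stood second for Prf1 (r = 0.94). For Nkg7 it was Klrg1, a receptor of NK and effector CD8 T cells (r = 0.96). Klrd1 ran closest to Ccl5, a chemokine made by cytotoxic lymphocytes (r = 0.86), Stat4, which signals for interleukin 12 (r = 0.85), and Cd96 (r = 0.84). Cd8a ran closest to Txk, a lymphocyte kinase (r = 0.99), and Gzmm, granzyme M (r = 0.94). The 3 genes nearest to Cd8b were Cd3d of the T cell receptor complex, Sit1, and Lck, the kinase bound by CD8 and CD4 (all r = 0.92). For Gzmb, Gzmk, Prf1 and Il2rb, Nkg7 was among the nearest, at r between 0.94 and 0.95.

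The lists of related genes were counted for smoke averaged over particles, where 6.39% of all genes passed, and differences between lists were not tested. Of 16 measured genes of the granule and killing machinery, 4 fell and 1 rose past the threshold, with a median of -0.07 against -0.02 over all genes. Unc13d, which primes granules for release, fell by 0.37 (adjusted p = 0.000586). Ctsw, a protease of cytotoxic cells, fell by 0.39 (adjusted p = 0.00441), and Serpinb9, the granzyme B inhibitor, fell by 0.37 (adjusted p = 0.00751). Lyst, which shapes lysosomes in many cell types, rose by 0.48 (adjusted p = 0.0152). Gzmm was the other that fell, at -0.58 (adjusted p = 0.0325). All these are limma values averaged over particles.

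Of 15 NK receptors and adaptors measured, 1 fell, with a median of -0.13. It was Sh2d1a, the adaptor SAP of T and NK cells, at -0.62 (adjusted p = 0.0269 by limma). Klrg1 was at -0.32 (adjusted p = 0.0768) and Klrk1, the receptor NKG2D, at -0.22 (adjusted p = 0.106), and Tyrobp, an adaptor that myeloid cells also use, at 0.22 (adjusted p = 0.0972), by limma. In all, 13 of the 15 were below 0. Other NK receptors ranged widely, with Klrb1a at -0.36 (adjusted p = 0.160) and Klrb1b at 0.21 (adjusted p = 0.294). Ncr1, Ncr3, Klrc1 and Klrc2 lay between -0.07 and -0.02, with adjusted p of 0.589 to 0.902 by limma. None of 11 transcription factors and cytokine receptors passed (median -0.10). Runx3 was at -0.22 and Eomes, the T-box factor related to T-bet, at -0.21, with adjusted p of 0.209 and 0.242 by limma, and Txk at -0.40 (adjusted p = 0.0614). Of 12 chemokines and receptors that attract lymphocytes, 2 fell and 1 rose (median -0.13). Cxcr3, the homing receptor of effector T cells, fell by 0.37 (adjusted p = 0.0188). S1pr5, which guides NK cells out of bone marrow, fell by 0.31 (adjusted p = 0.00658), and Ccl3, which macrophages also make, rose by 0.48 (adjusted p = 0.00254). Ccl5 was at -0.55 (adjusted p = 0.0643 by limma).

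Markers of other cells in the piece moved too. Of 15 T cell genes measured, 9 fell and 0 rose, with a median of -0.44, among them Zap70 (-0.59), Cd2 (-0.43), Cd3d (-0.64) and Cd5 (-0.69), with adjusted p of 0.00453 to 0.00712 by limma. B cell genes had a median of -0.43, with 1 of 7 falling, Jchain of plasma cells, at -0.70 (adjusted p = 0.0471 by limma). Over all rats, the mean of the B cell list was highest in rats 302 (8.65) and 104 (8.25) and lowest in rat 604 (6.86). The T cell list was likewise highest in rats 302 (8.38) and 104 (8.14) and lowest in rat 604 (6.87). The part of these rats in the medians of both lists was not tested. Of 8 alveolar macrophage genes, 7 rose, with a median of 0.86, and of 7 neutrophil genes, 2 rose, with a median of 0.80. Of 8 genes shared by all leukocytes, 2 rose and 1 fell, with a median of 0.19. The mean level of the macrophage list was 11.18 to 11.89 in rats given smoke without particles, 10.90 to 11.48 with smoke and Iraqi sand, and 11.41 to 11.95 with smoke and silica, against 10.46 to 10.92 with Iraqi sand alone, 10.60 to 11.15 with silica alone and 10.12 to 10.42 in air controls. The mean level of the T cell list was 7.29 to 7.59, 7.32 to 7.55 and 6.87 to 7.79 in those smoke groups, against 7.55 to 8.38 with Iraqi sand alone, 7.64 to 7.71 with silica alone and 7.75 to 8.14 in air controls. The part that any of these markers has in the member differences was not tested. Whether the members differ from the T cell list in how they moved was not tested either.

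With group means removed, the mean of the 9 members followed the mean of the NK receptor list over the 24 rats with r = 0.90, that of the transcription factor list with 0.88, the granule list with 0.78 and the T cell list with 0.74. Within the 12 smoke rats these were 0.94, 0.95, 0.82 and 0.82. Within the 12 rats without smoke they were 0.47, 0.47, 0.60 and 0.78, so that the T cell list was the closest of the 4. Without rat 302 those values were 0.73, 0.79, 0.63 and 0.41. Over the 24 rats, r was -0.54 against the macrophage list, 0.25 against the list of genes of all leukocytes, and -0.06 against neutrophils. Over the 11 smoke rats other than rat 604 the NK receptor value was 0.94 and the T cell value 0.68. For the list of lung epithelium and endothelium, r was -0.19 over the 12 smoke rats and -0.82 over those 11. These are descriptions over rats that share arrays, without a test.

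Further probe sets of Gzmb and Cd8a were also lower with smoke averaged over particles. A second Gzmb probe set had an averaged smoke difference of -0.48 ± 0.23 (SE) and ran with the first at r = 0.95 over 24 rats. Under silica alone it was at 0.03, against -0.15 for the one used. Both further Cd8a probe sets were lower with smoke, at -0.57 ± 0.18 and -0.20 ± 0.06 (SE), with r of 0.95 and 0.87. A Gzmb probe set that carries 2 symbols was dim, at a mean of 4.40, and is not read here. When the probe sets of each gene were averaged before the fit, the count of members called was again 1.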

How the data were processed

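Per the submitters' processing notes, the deposited values are log2 levels made by the authors with RMA, which corrects background, sets all arrays to the same quantiles and summarises each probe set. Its version is not given in the sources used here. Setting arrays to the same quantiles takes out any shift common to most genes. Of 31099 probe sets, 57 controls were left out, 20826 of the rest had 1 gene symbol, 436 several and 9780 none. Each gene was represented by its brightest single-symbol probe set, which gave 14217 genes.

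The fit used limma (version 3.58.1, R version 4.3.3) on the 24 arrays together, with a mean for each of 6 groups and 18 residual degrees of freedom, and two-sided tests in 12 comparisons, Benjamini-Hochberg adjustment over all genes in each, and an adjusted p under 0.05. It was tested on simulated data with independent genes and, for each gene, the same spread in all groups. The larger spread of most members in the smoke groups and their likeness from rat to rat were not simulated. Array medians lay between 7.26 and 7.32. RNA integrity ran from 8.1 to 9.8 on the 19 arrays that have a value. No batch was in the labels. Each rat is a separate animal, so p-values refer to the spread between rats, pooled for each gene over all 6 groups.

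The members and the 13 other lists were chosen with earlier results of these data known. All 9 measured members are counted in every comparison, and each is named with its value for smoke averaged over particles. In the other comparisons only some members are named. Of each list, up to 4 genes with the largest t for smoke are named, besides the 3 genes most like each member. Genes beyond that were chosen after their values were seen. They are Gzmm among those that fell, further NK receptors, and Myl7, Mki67 and Sftpc for the check of the tissue. Promoters came from RefSeq, assembly GRCr8, for 7 members.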

Additional observations from a re-analysis of the deposited data

How the results depend on the processing

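Over 8 settings other than leaving out 1 rat, 375 of 399 values of single members kept their direction and their side of the threshold, and over the fits that each left out 1 of 24 rats, 1259 of 1296 did. For smoke averaged over particles, the count of members past the threshold was 1. It became 0 among genes at or above the median level, where Klrd1, Cd8a, Cd8b and Il2rb were not tested. It was 5 with array weights, 0 with RNA integrity in the fit, and 0 without rats 302, 104 and 604. It ran between 0 and 4 when 1 rat was left out, while the count over all genes ran between 586 and 1463. For smoke without particles the count was 0, and it became 1 on the arrays compared alone (Cd8a) and 5 with array weights, while the count over all genes, 127, became 169 and 1119. For smoke and Iraqi sand the count of members became 1 on the arrays compared alone (Cd8a) and 1 with array weights (Cd8b). It ran between 0 and 1 when 1 rat was left out. The count over all genes, 139, ran between 13 and 1172 over the settings and between 53 and 564 when 1 rat was left out. For smoke and silica the count of members became 2 with array weights (Cd8a and Cd8b), and ran between 0 and 1 when 1 rat was left out. The count over all genes, 536, ran between 120 and 2477 over the settings and between 200 and 1777 when 1 rat was left out. The causes of these shifts were not tested, apart from the genes that the level filter removes.

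Under silica, the smoke difference changed sign without rats 302, 104 and 604 for Gzma (0.28), Gzmb (0.28), Gzmk (0.10), Prf1 (0.19), Nkg7 (0.06) and Il2rb (0.11), and for Klrd1 with RNA integrity in the fit (-0.05). Leaving out 1 rat gave ranges of -0.50 to 0.28 for Gzma, -0.46 to 0.28 for Gzmb, -0.37 to 0.10 for Gzmk, -0.55 to 0.19 for Prf1, -0.55 to 0.06 for Nkg7, -0.21 to 0.40 for Klrd1 and -0.54 to 0.11 for Il2rb. For smoke and silica, Gzma was at 0.16 without the 3 rats, and ran from -0.72 to 0.06 when 1 rat was left out. The number of all genes past the threshold for smoke averaged, 908 here, ran between 210 and 2651 over the settings. For smoke averaged, the fit on the arrays compared alone is the fit itself. No paired analysis was possible because rat numbers differ between the groups and pair no animals.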

Other observations

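Over the 12 smoke rats, the mean of the 9 members also followed the mean of the mast cell and basophil list (r = 0.79, and 0.63 without rat 604) and ran against the mean of 4 red cell genes (r = -0.66, and -0.74 without rat 604). Over the 12 rats without smoke, the red cell value was 0.62. Of 9 mast cell and basophil genes, 1 fell with smoke averaged over particles, the basophil protease gene Mcpt8, at -0.28 (adjusted p = 0.0245 by limma). Of 4 red cell genes, 1 rose, Alas2, the first enzyme of heme synthesis in red cells, at 0.38 (adjusted p = 0.0464 by limma). These correlations are descriptions without a test.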
